A study of Mus musculus with 4 samples.

Results

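Astrocytes are the glial cells that take up transmitter, buffer potassium and water, and pass metabolites to neurons. Their identity is commonly read from a small set of abundant transcripts, and 10 of these were examined here in the CA1 field of the mouse hippocampus: the glutamate transporters Slc1a2 and Slc1a3, glutamine synthetase (Glul), the gap junction protein connexin 43 (Gja1), the intermediate filament Gfap, the water channel Aqp4, the glycolytic enzyme Aldoc, the secreted lipid carriers Apoe and Clu, and Ndrg2. They were chosen by name, through every probe set to which the array's annotation gives that single gene symbol. This gave 16 of the 12488 probe sets, for 9 of the 10 genes. Slc1a3 had no such probe set and was not analysed here. Gja1, Gfap, Aqp4, Apoe, Clu, Ndrg2 and Glul had a pair of probe sets each, and Slc1a2 and Aldoc had 1 each.

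The samples were total RNA from CA1 of young male C57BL/6J mice that had been handled and not otherwise treated, on 4 single-channel arrays. They served as the unshocked controls of mice given shocks, and were taken 1, 2, 4 and 6 hr after the shocked mice had their final shock. Each hour has 1 array, so no value has a replicate at its own hour, and hour and sample cannot be told apart. The sources used here do not state how many animals one array stands for, and shocked mice were not analysed here. Values are the authors' deposited intensities, the brightness of a probe set on a linear scale. Brightness depends on the probes as well as on the RNA, so intensities are compared between arrays within a probe set and not between genes.

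In the astrocyte, glutamate cleared from the synapse by the transporters is turned into glutamine by glutamine synthetase and handed back to neurons. Connexin 43 channels join astrocytes into a network, Aqp4 lines their endfeet on blood vessels, and Gfap fills their main processes and is a standard marker of reactive astrocytes. Apolipoprotein E and clusterin carry lipids in the brain's extracellular fluid.

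Scaling placed the arrays at one overall level before deposit, with trimmed means of 500.3 on each, while the median intensity lay at 173 on the 2 hr array and between 198 and 204 on the other 3. Values under 54.6 were raised to that floor before log2 values were taken, and 28.3% of values at 2 hr, against 23.4% to 24.7% on the others, had been under it. The 3' to 5' ratio of the Gapdh control, which rises when RNA or labelled product is shortened, stood at 4.84, 7.56, 6.25 and 4.89 for 1, 2, 4 and 6 hr, and that of the Actb control at 3.44, 3.20, 3.24 and 2.99. Of 12 pyramidal neuron markers with a probe set, all but Camk2a stayed above the floor on every array through the brightest probe set. Snap25, a synaptic membrane protein, had the highest intensities of them, 17370 to 20903. Camk2a, a protein kinase, read 154, 137, 161 and 53.2 at 1, 2, 4 and 6 hr. In tissue of mixed cells fewer astrocytes and less RNA per astrocyte cannot be told apart. Among 13 astrocyte markers with a probe set, 9 of them the genes reported here, the summed intensity was 54610, 51220, 51450 and 56900 at 1, 2, 4 and 6 hr. Without Apoe, the brightest, it was 33750, 37040, 33200 and 35600, so the 2 hr array went from lowest to highest. All 13 stayed above the floor on every array through the brightest probe set. The 4 others were the calcium-binding protein S100b (708 to 785), the connexin Gjb6 (332 to 514), the bicarbonate carrier Slc4a4 (442 to 701) and the growth factor receptor Fgfr3 (140.3 to 336), so the tissue carried astrocyte RNA beyond the members. One marker of choroid plexus, Ttr, read 140.3, 140.3, 3217 and 196 at 1, 2, 4 and 6 hr, so it stood far higher on the 4 hr array. The summed intensity of the 5 choroid plexus and ependyma markers with a probe set was 1147, 941, 4246 and 1215, and 1006, 800.5, 1030.0 and 1018 without Ttr. Slc4a5 was below the floor except at 4 hr, where it read 92.9. Kl (54.8, 370.0, 266 and 247), Folr1 (278, 120, 206 and 214) and Foxj1, a regulator of motile cilia (662, 305, 464 and 553) were not highest at 4 hr.

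No astrocyte gene changed along a line over the hours past the threshold. Of the 16 probe sets 14 passed the filter on mean level, covering the 9 genes, and 0 of these 14 had an adjusted p under 0.05 (limma, Benjamini-Hochberg over 7453 probe sets; 0.0% of all tested probe sets were called). The smallest adjusted p among the 14 was 0.883, which was also the smallest over the whole array. At an unadjusted p under 0.05 there were 2 of the 14, for Slc1a2 and for the dimmer Gja1 probe set, beside 382 (5.13%) of all tested. Slopes were above 0 for 7 and below 0 for 7 of the 14, with a median of -0.01 log2 units an hour, where the median over all tested probe sets was 0.002. The sign of the members' median was not stable: it was 0.033 with the brightest probe set of each gene (6 slopes above 0 and 3 below), 0.015 with no filter, 0.003 with the filter at the 60th percentile and -0.034 without the 6 hr array. The fit rests on 4 arrays and 2 residual degrees of freedom, and its p-values measure only the scatter of these arrays about a line.

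**Figure D1:**
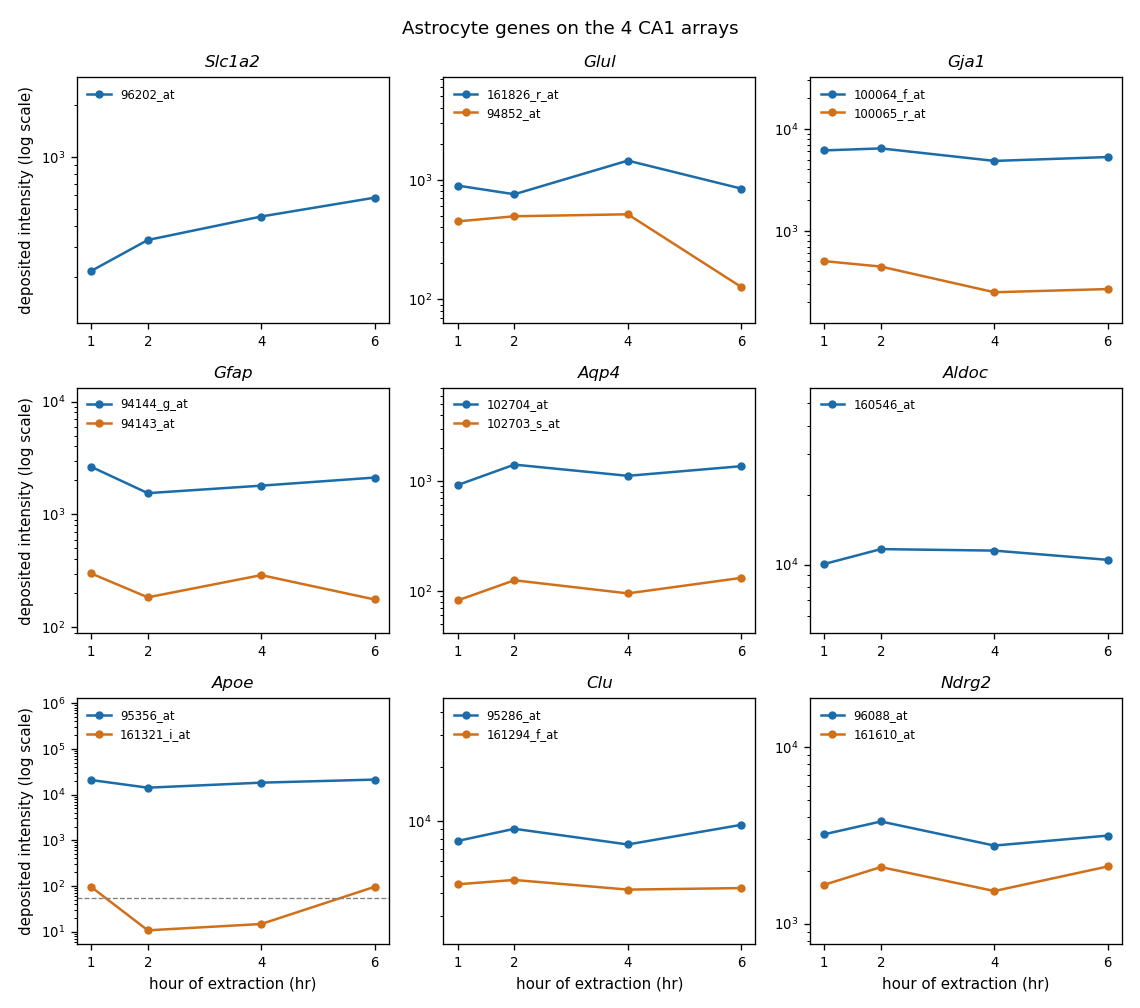
Deposited intensity (log scale) of the 16 probe sets of 9 astrocyte genes against the hour of extraction, with 1 point per array, 1 line per probe set and a separate vertical range in each panel; the dashed line in the Apoe panel is the floor of 54.6. Slc1a2 reads 218 at 1 hr and 580.3 at 6 hr, the dimmer Glul probe set lies at 127 at 6 hr against 449 to 515 before, and Aldoc stays between 10061 and 11672.

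The widest differences between arrays among the tested probe sets were in the genes of glutamate handling. Slc1a2, the transporter that carries out most of the forebrain's glutamate uptake, had intensities of 218, 329.6, 451 and 580.3 at 1, 2, 4 and 6 hr. It was the only one of the 14 tested probe sets (7.14%) in strictly ascending order of time, against 4.0% of all tested probe sets. The slope was 0.27 ± 0.07 log2 units an hour (SE; adjusted p = 0.883, limma), and the highest array exceeded the lowest 2.67-fold. The 4 values averaged 395 ± 156 (SD, n = 4, 1 array at each hour). With the 4 values ascending, leaving out any array must give a slope above 0, so that sign is no added check. Each scaling and floor tried also gave a slope above 0. No value lay under the highest floor, 123, and the log2 range was 1.41, so these alternatives add little. With no second probe set, this pattern has no check within the array.

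Glul, the enzyme that makes glutamine from glutamate, was read by 2 probe sets that disagreed. The brighter, 161826_r_at, had 896, 758, 1450.1 and 845 at 1, 2, 4 and 6 hr, so its 4 hr value stood above the rest. The dimmer, 94852_at, had 449, 495, 515 and 127, so its 6 hr value stood below the rest. For 4 and 6 hr against 1 and 2 hr the difference was 0.43 log2 units through the brighter and -0.89 through the dimmer. The dimmer was the only member probe set separated by 1 log2 unit (2-fold) or more from each other array, 1 of 14, where 7.53% of all tested probe sets were so separated on some array. Its slope was -0.34 ± 0.14 log2 units an hour (SE; adjusted p = 0.965, limma) and turned to 0.06 when the 6 hr array was left out. The brighter probe set was highest on the array where Ttr also was, and the part of choroid plexus RNA in it was not tested. By the suffix of its name, the brighter set is one for which the array maker had to relax its probe selection rules.

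To show the sequence context of the genes with the widest differences, the 250 bases before the annotated start of Slc1a2, Glul and Gja1 are given 5' to 3' on the gene's strand, from RefSeq on GRCm38.p6. They lie at chr2:102706188-102706437, chr1:153899679-153899928 and chr10:56377050-56377299, each on the plus strand. The capitals mark matches, on either strand, to 6 short motifs: the TATA box TATAAA, the STAT-type TTCNNNGAA, the nuclear factor I core TTGGC, the clock-type E box CACGTG, the AP-1 type TGANTCA and the GC box GGGCGG.
Slc1a2: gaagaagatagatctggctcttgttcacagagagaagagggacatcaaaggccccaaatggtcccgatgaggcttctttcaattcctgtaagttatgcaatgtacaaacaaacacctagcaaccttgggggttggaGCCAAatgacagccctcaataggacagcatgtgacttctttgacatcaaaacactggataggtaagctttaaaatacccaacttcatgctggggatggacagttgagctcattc
Glul: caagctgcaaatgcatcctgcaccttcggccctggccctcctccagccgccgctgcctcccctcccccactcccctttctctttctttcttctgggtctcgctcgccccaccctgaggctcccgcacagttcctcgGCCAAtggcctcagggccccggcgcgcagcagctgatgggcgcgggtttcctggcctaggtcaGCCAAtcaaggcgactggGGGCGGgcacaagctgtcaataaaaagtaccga
Gja1: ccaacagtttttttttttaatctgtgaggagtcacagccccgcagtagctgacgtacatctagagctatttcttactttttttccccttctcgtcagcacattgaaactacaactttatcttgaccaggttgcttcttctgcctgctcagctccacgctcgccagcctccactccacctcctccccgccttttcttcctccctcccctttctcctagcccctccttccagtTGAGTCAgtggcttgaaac

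The Slc1a2 stretch held 1 nuclear factor I core, printed as its reverse complement. The Glul stretch held 2 such cores, printed likewise, and 1 GC box, which overlap no other motif. The Gja1 stretch held 1 AP-1 type motif close to the start. Across 32851 promoter stretches of the same length, 41.5% held the core, 32.7% the GC box and 6.75% the AP-1 type motif. The other motifs occur in 12.4% (TATA box), 7.02% (STAT-type) and 6.02% (E box) of promoters. These are matches of letters and no measure of binding. Of the 9 measured genes 7 had an entry in the RefSeq promoter table.

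The coupling, water and filament genes each had a different order of the arrays. Gja1, the main connexin of astrocyte gap junctions, had 6146, 6432, 4848 and 5290.2 through its brighter probe set and 503, 445, 249 and 268 through its dimmer one. In both, the 2 later arrays lay below the 2 earlier ones without overlap, and the 4 hr array was lowest. The share of all tested probe sets with such a separation was not counted, so the separation is only a description. The 4 hr array was lowest for 24.3% of all tested probe sets. It was lowest for 35.3% of the 746 with the highest mean level, which include the brighter Gja1 set. The difference of 4 and 6 hr from 1 and 2 hr was -0.31 log2 units in the brighter and -0.87 in the dimmer set. The slopes were -0.06 ± 0.07 and -0.21 ± 0.08 log2 units an hour (SE; adjusted p = 1 and 0.95, limma), both below 0 under every array left out and every scaling and floor tried. With any array left out, the sign follows from the order of the 4 values, so it is no added check. Without the 6 hr array the slopes were -0.13 and -0.35. The brighter set carries the suffix of probe sets that can match several members of a sequence family, and the dimmer the same suffix of relaxed probe selection as the brighter Glul set.

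Aqp4, the water channel of the endfeet, had 920, 1413, 1116 and 1366 at 1, 2, 4 and 6 hr. Its second probe set, dimmer and below the filter, had 82.1, 125, 95.1 and 132. Both were lowest at 1 hr, second lowest at 4 hr and high at 2 and 6 hr, and their centred log2 values differed by a root mean square of only 0.06. This was the smallest difference among the 7 genes with a pair of probe sets. Probe sequences were not available, so whether the pair is an independent check was not tested. The slope of the brighter was 0.07 ± 0.08 log2 units an hour (SE; adjusted p = 1, limma), within its error, and -0.01 without the 1 hr array.

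Gfap, the filament protein of astrocyte processes, had 2646, 1545, 1799 and 2122 through 94144_g_at, highest at 1 hr and lowest at 2 hr. The dimmer 94143_at had 301, 185, 290.5 and 177, also highest at 1 hr but lowest at 6 hr. The pair thus shared the lower value at 2 hr than at 1 hr and parted at 6 hr, with a root mean square difference of 0.34 log2 units. The highest array exceeded the lowest 1.71-fold through the brighter set. Neither slope differed from 0 beyond its error, at -0.02 ± 0.09 and -0.09 ± 0.09 log2 units an hour (SE; adjusted p = 1 for both, limma). The slopes became 0.12 without the 1 hr array in the brighter set and 0.03 without the 6 hr array in the dimmer.

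Aldoc and Clu had the narrowest ranges of the members. Aldoc, the aldolase form that marks astrocytes in the brain, had 10061, 11672, 11500.4 and 10488 at 1, 2, 4 and 6 hr, a highest over lowest ratio of 1.16. Its coefficient of variation over the 4 arrays was 7.14%. Its more widely expressed relative Aldoa had 10689, 11054, 11492 and 10904, likewise within a narrow range.

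Clu, or clusterin, a secreted chaperone and lipid carrier, had 7776, 9075, 7433 and 9545 through its brighter probe set. The other Clu set had 4479, 4733, 4186 and 4267, with a coefficient of variation of 5.54%, the lowest of the 16. It carries the same suffix as the brighter Gja1 set, of probe sets that can match several members of a sequence family. Both were lowest at 4 hr (the brighter at 1 hr after quantile normalization), and the sets parted at 6 hr, where the brighter was at its highest (at 2 hr after a shift to a common median). The 4 hr array is the one with the high Ttr value, and the part of choroid plexus RNA in the Clu values was not tested.

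Apoe, the main lipid carrier secreted by astrocytes, had 20855, 14171, 18252 and 21303, lowest at 2 hr, with a highest over lowest ratio of 1.5. Its second probe set was near the floor, with 95.7 at 1 hr and 95.9 at 6 hr and values below the floor at 2 and 4 hr. The dim set therefore placed the arrays in the same high and low pairs as the bright one, at a level where nothing more can be read. The slope of the bright set was 0.04 ± 0.08 log2 units an hour (SE; adjusted p = 1, limma) and became -0.03 without the 6 hr array.

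Ndrg2, a cytoplasmic protein of the alpha/beta hydrolase fold that is abundant in astrocytes, had 3211, 3795, 2769.9 and 3157 at 1, 2, 4 and 6 hr. Its other probe set had 1659, 2092, 1529 and 2109. Both were high at 2 hr and lowest at 4 hr, and they parted at 6 hr. The root mean square difference of the pair was 0.14 log2 units.

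**Figure D2:**
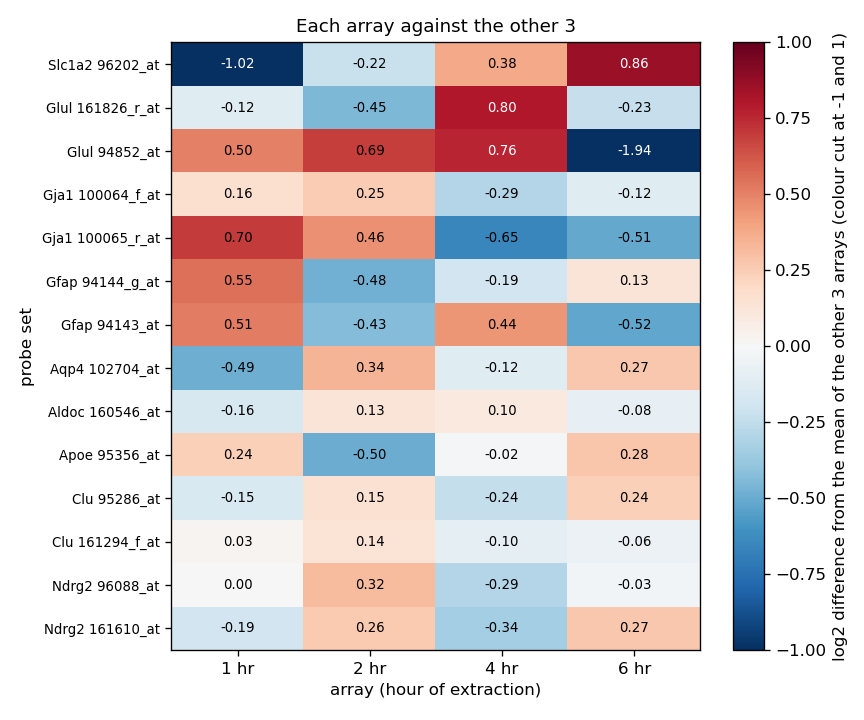
Log2 difference of each array (columns, by hour) from the mean of the other 3 arrays for the 14 tested probe sets (rows), with red higher and blue lower. The 2 hr column is red for Aqp4, Clu and Ndrg2 and blue for Gfap and Apoe, and the largest entry is -1.94 for the dimmer Glul probe set at 6 hr.

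The members did not move as one block over the arrays. On the 2 hr array, through the brightest probe set of each gene, Gja1, Aqp4, Aldoc and Ndrg2 were at their highest, whereas Glul, Gfap and Apoe were at their lowest, except that quantile normalization moved the highest array of Gja1 to 1 hr and of Aldoc to 4 hr, and a shift to a common median moved the lowest array of Gfap to 4 hr and of Glul to 6 hr. Relative to the mean of the other 3 arrays, Ndrg2 lay 0.32 and Aqp4 0.34 log2 units above at 2 hr, and for Gfap and Apoe the differences were -0.48 and -0.50. Ndrg2 and Gja1 had the most similar profiles of any 2 members, with a root mean square difference of 0.08 log2 units between their centred values over the 4 arrays. Gfap and Apoe differed by 0.15, and Ndrg2 and Gfap by 0.37. Slc1a2 was nearest to Aqp4, at 0.41. The measure grows with the size of the differences between arrays as well as with their order. Slc1a2 had the largest SD among the brightest sets, 0.61 log2 units, so its distances do not tell whether its order was shared. The 2 hr array had the lowest median and the highest ratio for the Gapdh control but not for Actb, and their part in these differences was not tested. Markers of other cell types were mixed on that array. Of 12 pyramidal neuron markers 6 were highest and 4 lowest at 2 hr, with Nrgn, a postsynaptic protein, among the lowest (4173, 1884, 3348 and 5709) and Wfs1 among the highest (1753, 2594, 2574 and 1668). Of the 3 blood markers Hba-a1 was lowest at 2 hr (3907, 1883, 2444 and 3150.4), Alas2 highest (103, and 30.6 to 57.3 elsewhere) and Slc4a1 neither. The part of these markers in the differences was not tested.

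The scale chosen bears on these counts. On the deposited scale 5 of the 14 probe sets were highest at 2 hr (24.4% of all tested probe sets were), 9 of 14 after every array was shifted to a common median (45% of all tested) and 3 of 14 after quantile normalization (26.6% of all tested). Brightness bears on them too. Of the 746 tested probe sets with the highest mean level, 6 of them member sets, 39.8% were highest at 2 hr. Of the same 746, 35.3% were lowest at 4 hr, against 24.3% of all tested (deposited scale). High values at 2 hr and low ones at 4 hr were thus common among bright probe sets and not particular to the members. The shift to a common median raised the 2 hr array by 0.17 log2 units at the median of the tested probe sets and lowered the others by 0.03 to 0.07. Gfap was highest at 1 hr, and Apoe lowest at 2 hr, on each of the 3 scales. Aqp4 was highest at 2 hr and Gja1 lowest at 4 hr, through the brighter probe set, on each of them.

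Most member probe sets had an SD over the arrays above the median of probe sets of like brightness. The SD of log2 intensity over the 4 arrays, which holds hour, sample and array together, exceeded the median of all tested probe sets in the same band of mean level (10 bands of equal size) for 12 of the 14 member probe sets. Of all 7453 tested probe sets, 3723 lay under that median, by its construction. Several excesses were slight: Gja1 and Ndrg2 through their brighter sets had 0.19, against a median of 0.17 in the top band. Larger ones were Apoe with 0.27 against 0.17, Gfap with 0.33 against 0.19 and Slc1a2 with 0.61 against 0.30. The dimmer Glul set had 0.97 against 0.30 and the dimmer Gja1 set 0.51 against 0.30. Below their band's median were Aldoc, at 0.10, and the dimmer Clu set, at 0.08. Of 84 probe sets in 7 lists of related genes, 46 (54.8%) exceeded the median of their band. The members share arrays and partly share genes, so the count is a description.

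**Figure D3:**
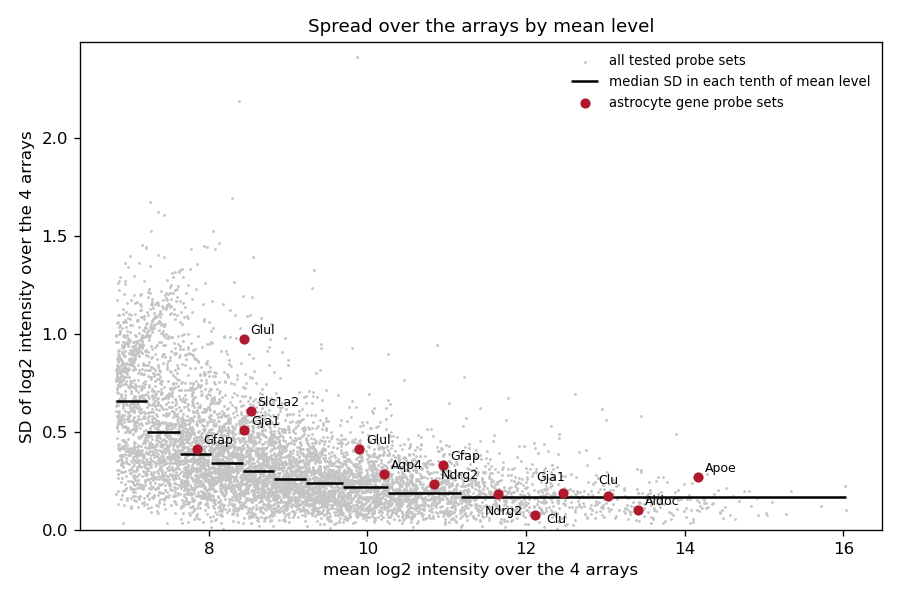
SD of log2 intensity over the 4 arrays against mean log2 intensity, for all 7453 tested probe sets (grey), with the median SD in each of 10 bands of mean level (black bars) and the 14 astrocyte gene probe sets (red). The members lie above the bar of their band in 12 of 14 cases, with Aldoc and 1 Clu probe set below it.

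The difference between the 2 probe sets of a gene ranged from small to large. Centred log2 values of the pair differed by a root mean square of 0.06 for Aqp4, 0.14 for Clu, 0.14 for Ndrg2, 0.25 for Apoe, 0.29 for Gja1, 0.34 for Gfap and 0.80 for Glul. Over 1175 pairs of tested probe sets of the same gene on this array the median was 0.38. Of the 5 pairs here with both sets tested, Glul alone was above it. The 1175 pairs were not matched for brightness. A small difference need not mean agreement where both sets varied little. The Clu sets had SDs of 0.17 and 0.08 log2 units, beside their difference of 0.14. The 0.25 of Apoe is no measure of agreement, because 2 of the 4 values of its dim set (10.7 and 14.7) were raised to the floor. The difference of 4 and 6 hr from 1 and 2 hr had the same sign in both sets for 5 of 7 genes, and for 3 of the 5 whose sets were both tested (for 56.2% of the 1175 pairs, all of tested sets). The exceptions were Glul and Clu, and for Clu the brighter set differed by 0.00 log2 units and the other by -0.12. The sign of the dim Apoe set, at 0.00, also has no weight. The highest array was the same in both sets for 3 of 7 genes, Glul, Gfap and Apoe, and for 2 of the 5 with both sets tested (29.9% of pairs; for Glul the dimmer set moved to 2 hr under both other scalings), and no gene had the same full order in both sets (5.96% of pairs).

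**Figure D4:**
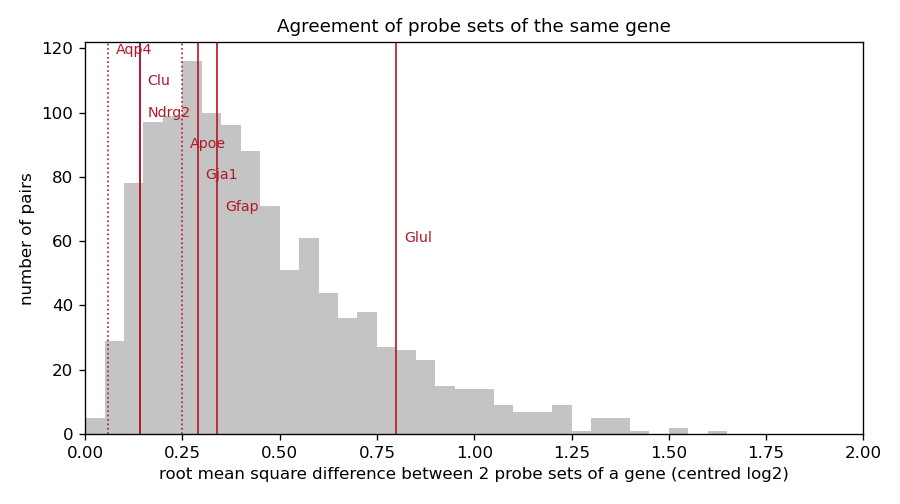
Number of pairs of tested probe sets of the same gene (grey, 1175 pairs) by the root mean square difference of their centred log2 values, with the 7 astrocyte gene pairs as red lines (dotted where 1 probe set of the pair was not tested; Clu and Ndrg2 coincide at 0.14). Glul lies at 0.80, and the other 6 lie at or below 0.34, with the place of Apoe set by values raised to the floor.

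The tested genes whose profile over the 4 arrays came closest were found for the 4 members that varied more than the median tested probe set, by the same root mean square difference. For Slc1a2 they were Meg3, a maternally expressed long non-coding RNA, at 0.04, and Arhgef2, at 0.06. The Meg3 probe set had 767, 1119, 1475 and 2003 at 1, 2, 4 and 6 hr, and its second probe set had 87.8, 940.2, 2724 and 3416, in the same order. The second probe set of Arhgef2 was not in that order, at 304, 290.1, 269.6 and 283. For Glul, through the brighter set, they were Mrpl48, a mitochondrial ribosomal protein, and Igf2, a growth factor that meninges and choroid plexus express, both at 0.05. Igf2 had 1461, 1288, 2564 and 1492, high on the array with high Ttr, and the part of choroid plexus RNA in it was not tested. The second probe set of Igf2 was below the floor on all 4 arrays, and that of Mrpl48 was highest at 1 hr (566, against 361 to 413). For Gfap they were Cdh1 (0.02) and Atp5g2 (0.03), and for Aqp4 Rhou and 2310010J17Rik (0.025 each). These likenesses were picked over 4 arrays among all tested probe sets with 1 symbol, less those of the member's own gene, and are given as values.

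Related genes were followed in 7 lists of 141 genes, of which 107 had a probe set and 84 passed the filter. None of the 84 changed along a line past the threshold (limma, Benjamini-Hochberg over all tested), 2 had an unadjusted p under 0.05, 41 slopes were above 0 and 43 below. Of the 84, 6 (7.14%) stood at least 2-fold apart from each other array, close to the 7.53% of all tested.

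Among genes of glutamate transport and the glutamine cycle, 0 of 7 tested passed, with 3 slopes above 0 and a median slope of -0.02 log2 units an hour. Glud1, which interconverts glutamate and 2-oxoglutarate, had 1355, 2364, 1758 and 1957, lowest at 1 hr like Slc1a2 but highest at 2 hr. Asns, which makes asparagine from glutamine, averaged 3463 ± 277 (SD, n = 4). Got2, the mitochondrial aspartate aminotransferase, had its highest value at 4 hr, 2039, like Glul, and 1026 to 1635 elsewhere. The 4 hr array was highest for 26.5% of all tested probe sets. This Got2 set carries the same suffix of relaxed probe selection as the brighter Glul set. Between later and earlier hours it differed by 0.38 log2 units, and the second Got2 set by 0.27. The second probe sets of Asns and Glud1 differed between later and earlier hours in the opposite direction (0.16 against -0.06, and -0.11 against 0.05 log2 units). Slc38a2, a glutamine transporter, differed by -0.35 log2 units at 4 and 6 hr against 1 and 2 hr.

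Among potassium, water and gap junction genes, 0 of 9 passed, with 5 slopes above 0 and a median of 0.0. Dag1, the dystroglycan that anchors Aqp4 at endfeet, had 1669, 2249, 1676 and 1913. It was higher at 2 and 6 hr than at 1 and 4 hr, as was the bright Aqp4 set. Its 1 and 4 hr values were nearly equal, and the share of all tested probe sets with such an order was not counted. Its second probe set differed between later and earlier hours by 0.26 log2 units, against -0.11 in the brighter. Slc12a2, a sodium, potassium and chloride carrier, averaged 899.8 ± 184 (SD, n = 4). Aqp1, the water channel of choroid plexus, had 317, 158, 118 and 106 through the probe set used, highest at 1 hr. Its second probe set differed by 0.0 log2 units between later and earlier hours. The part of choroid plexus RNA in the Aqp1 values was not tested. Gja5, an endothelial connexin, was below the floor at 2 hr and read 166 to 286 elsewhere.

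Glycolysis and lactate genes had 0 of 13 calls, 8 slopes above 0 and a median of 0.005. Pkm, pyruvate kinase, averaged 7572 ± 1260 (SD, n = 4). Slc2a1, the glucose transporter of endothelium and astrocytes, had 77.1, 268, 327 and 140.0, and Hk1, the main brain hexokinase, differed by -0.48 log2 units for the later against the earlier hours.

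Lipoprotein and other secreted genes had 0 of 14 calls, 7 slopes above 0 and a median of -0.005. Cst3, a secreted protease inhibitor, averaged 29250 ± 2450 and Cpe, a peptide processing enzyme, 22880 ± 998 (SD, n = 4). Apoc1, which lies in the same gene cluster as Apoe, had 234, 114, 88.4 and 158, highest at 1 hr and lowest at 4 hr. Timp3, an inhibitor of matrix proteases, had 985, 778, 663 and 649.

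Filament and reactive genes had 0 of 16 calls, 8 slopes above 0 and a median of 0.0. The metallothioneins Mt3 and Mt2, metal-binding proteins, averaged 21380 ± 2900 and 17310 ± 1880 (SD, n = 4), and both were highest at 1 hr, as was Gfap. Vcan, a matrix proteoglycan, was below the floor at 1 hr and read 130.0, 323 and 255 at 2, 4 and 6 hr, with a slope of 0.44 ± 0.14 log2 units an hour with the floor in place (SE; adjusted p = 0.89, limma). Tnc, or tenascin C, had 166, 135, 82.9 and 92.4.

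Astrocyte lineage and other markers had 0 of 22 calls, 9 slopes above 0 and a median of -0.018. The glutathione transferases Gstm5 and Gstm1 averaged 15970 ± 1790 and 10610 ± 821 (SD, n = 4). Fabp7, the fatty acid binding protein of radial glia and astrocytes, had 898, 2067, 676 and 911, more than 2-fold above each other array at 2 hr, where Aqp4 and Ndrg2 were also high. Nfia, a transcription factor of astrocyte formation, was below the floor at 4 hr and had 224, 138 and 178 at 1, 2 and 6 hr, and its second probe set differed in the other direction between later and earlier hours, by 0.24 log2 units. In the NDRG family, with 0 of 3 calls, Ndrg4 (20060 ± 1600; SD, n = 4) and Ndrg1 (2599 ± 279) were highest at 2 hr and lowest at 4 hr, as Ndrg2 was, while Ndrg3 was highest at 4 hr (876 against 644 to 782).

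**Figure D5:**
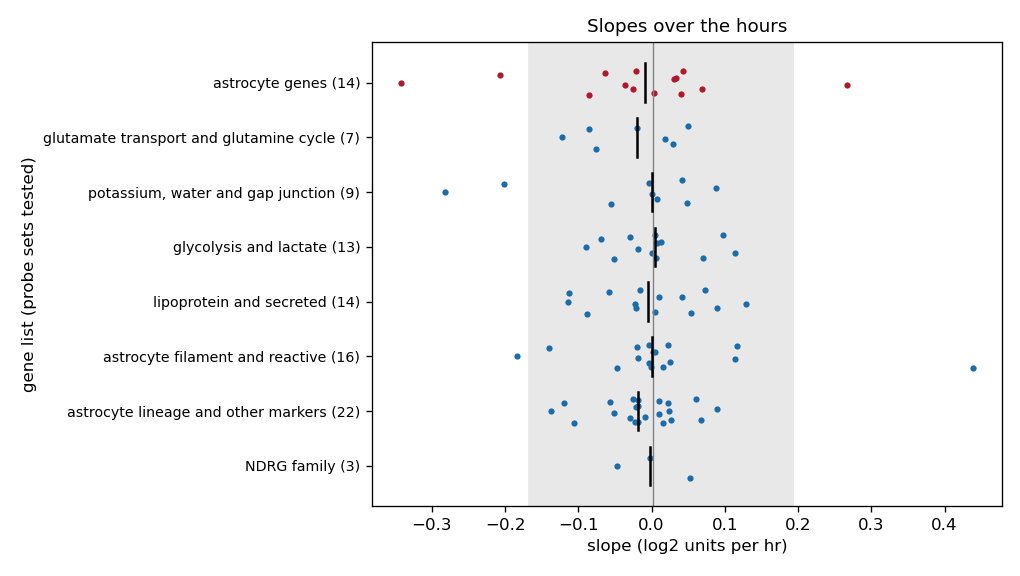
Slope over the hours in log2 units an hour for the 14 astrocyte gene probe sets (red) and 84 probe sets of related genes in 7 lists (blue), with list medians as black bars and the 5th to 95th percentile of all tested probe sets, -0.167 to 0.193, shaded. Of the astrocyte probe sets 11 of 14 lie inside the shaded band, and Slc1a2 and the dimmer Gja1 and Glul sets lie outside it.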

How the data were processed

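Each of the 4 arrays has 1 deposited intensity for each of 12488 probe sets; software and summary method are not given in the sources used here. Intensities, as the authors deposited them, are linear, and the equal trimmed means (2% off each end) show a common scaling before deposit, as read from the values. Such scaling hides any shift shared by most genes. No detection calls were used. Precision is limited by having 4 arrays, 1 at each hour.

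Symbols came from the platform annotation: 10855 had 1 symbol, 396 several and 1237 none. Control probe sets (66) were not tested. Values under the 25th percentile (54.6) were set to it, and log2 was taken. The 7453 probe sets above the 40th percentile of mean log2 were fitted with a line over the hours (limma 3.58.1, R 4.3.3). Tests were 2-sided, with Benjamini-Hochberg at 0.05. The fit was also run on simulated data with known slopes, and the outcome is not given here. With 2 residual degrees of freedom, 0 calls do not show that no probe set changed. No label says that the arrays are separate animals, so p-values may measure technical spread.

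Members, lists and tests were chosen with earlier results of these data known. Named genes were the members; in each list the 2 brightest and the 2 with the largest difference of 4 and 6 hr from 1 and 2 hr; and for members varying more than the median probe set, the 2 nearest profiles. The count of SDs above the median of their band of mean level was added after seeing the data. Alternatives were other scalings, floors, filters, variance models and time terms, and each array left out.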

Additional observations from a re-analysis of the deposited data

Results flagged for a closer look

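The 16 astrocyte gene probe sets were examined for a value far from the other 3 among the 4 control arrays, which stand at different hours. In 1 of them, the Glul probe set 94852_at, the lowest value (127 at 6 hr) was separated from the next by 0.903 of the whole log2 range, above Dixon's critical value for 4 samples. About 1 in 20 probe sets would pass by chance. The second Glul probe set was not low at 6 hr (845, with 758 to 1450.1 elsewhere).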

How the results depend on the processing

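Over 14 alternatives (scalings, floors, filters, variance models, time terms and each array left out) the count of called member probe sets stayed at 0; at an unadjusted p under 0.05 there were 1 to 3 members and 229 to 781 probe sets in all, and the smallest adjusted p of a member was 0.652. Ordinary least squares and an intensity-dependent robust prior also called 0 of the 7453, with 333 and 330 at an unadjusted p under 0.05. Of 112 alternative slopes of the 14 probe sets 101 kept their direction and 11 reversed. The 5 slopes that never reversed were those of Slc1a2, both Gja1 sets, the dimmer Clu set and the brighter Ndrg2 set. For these 5 slopes the order of the 4 values fixes the sign with any array left out, so that part is no added check. With 1 array left out these ran from 0.204 to 0.333 for Slc1a2, from -0.127 to -0.049 and from -0.35 to -0.183 for the brighter and dimmer Gja1 sets, from -0.041 to -0.015 for Clu and from -0.093 to -0.01 for Ndrg2. The Aldoc slope (0.003 log2 units an hour) became -0.01 after a shift to a common median. With 1 array left out, slopes ran from -0.001 to 0.266 for the brighter Glul set and from -0.492 to 0.06 for the dimmer, from -0.143 to 0.115 for the brighter Gfap set and from -0.143 to 0.032 for the dimmer, from -0.012 to 0.112 for Aqp4, from -0.039 to 0.054 for Aldoc, from -0.029 to 0.147 for Apoe, from -0.039 to 0.053 for the brighter Clu set and from -0.066 to 0.061 for the dimmer Ndrg2 set; the cause of the reversals was not tested. The median slope of the members, -0.01, ran from -0.034 (without the 6 hr array) to 0.033 (the brightest probe set of each gene). The number of member probe sets standing apart from each other array was 1, 3 at a threshold of 0.58 log2 units, and 0 (without the 6 hr array) to 2 (without the 2 hr array) with 1 array left out. Genes whose 2 probe sets had the same sign numbered 5 of 7, and 3 (without the 4 hr array) to 6 (without the 1 hr array). The 12 of 14 SDs above the median of their level band became 10 to 12 of 14, and 11 of 15 without the 1 hr array. No paired analysis was possible because each hour has 1 array and the labels pair none. Dim probe sets near the floor carry little information, as for the second Apoe set.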
